A study of Mus musculus with 4 samples.

Results

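A group of 10 long noncoding RNAs with known regulatory or host-gene roles was followed in MLO-Y4 cells under mechanical loading: *Malat1*, *Neat1*, *Gas5*, *Snhg1*, *Snhg12*, *Epb41l4aos*, *Mir22hg*, *Kcnq1ot1*, *Meg3* and *H19*. These 10 of 55450 annotated genes were chosen by name, and each name occurred once in the count table. Of the 10, 8 passed the filter on low counts and were tested. *Meg3* and *H19* had 0 counts in all 4 libraries, so the description of the group as abundant RNAs did not hold for them. The 8 detected RNAs all had fold changes above 0 after loading, as had 48.5% of the 16269 genes tested, and their median was 0.21 on the log2 scale against -0.01 over those genes. In edgeR, 0 of the 8 passed an adjusted p of 0.01 in either direction, while 0.0983% of all tested genes did (0.0123% higher, 0.0861% lower). At 0.05 it was also 0 of 8 against 0.904% of all genes. In DESeq2, 0 of the 8 passed 0.01 or 0.05, against 2.91% and 4.88% of the genes it adjusted.

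MLO-Y4 is a mouse osteocyte-like line derived from long bone, here labelled as wild type. Cells of the 2 loaded samples grew on collagen-coated elastic silicone plates and received equiaxial stretch of 20% strain at 0.5 Hz for 12 h. Cells of the 2 unloaded samples stayed in ordinary 6-well plates in the incubator of the same system for the same 12 h, so plate type and stretch cannot be told apart. Total RNA was depleted of ribosomal RNA before sequencing, which keeps RNAs without a poly(A) tail. All samples came from 1 cell line, and no source stated that replicates were separate cultures, so p-values measure the spread between these libraries, which may be technical.

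Long noncoding RNAs of these kinds act in different places. *Malat1* and *Neat1* stay in the nucleus, where *Malat1* gathers in splicing speckles and *Neat1* forms the scaffold of paraspeckles. The snoRNA host genes are spliced transcripts whose introns carry small nucleolar RNAs, the guides for chemical modification of ribosomal RNA, and whose spliced product is often short-lived because ribosomes trigger its decay. *Kcnq1ot1*, *Meg3* and *H19* belong to imprinted clusters, in which 1 parental copy is expressed. In bone, *Malat1*, *H19* and *Meg3* have been studied mostly in osteoblast differentiation.

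Total counts were 28941994 to 32185693 per library, and 3 counts corresponded to 0.0930 to 0.103 CPM, the count scaled to a common library total. The median absolute log2 difference between replicates was 0.16 in unloaded and 0.17 in loaded libraries. All 37 rows of the mitochondrial genome were at 0. Of the markers of the osteoblast and osteocyte lineage, *Col1a1* (931 to 1032 CPM), *Gja1* (485 to 584 CPM), *Runx2* (48.5 to 56.4 CPM) and *Phex* (43.7 to 55.8 CPM) were present. *Pdpn*, which encodes the early osteocyte protein E11, was at 143 and 151 CPM in unloaded and 215 and 228 CPM in loaded libraries. The other 6 of the 11, *Sost*, *Mepe*, *Fgf23*, *Dmp1*, *Alpl* and *Bglap*, were at or below 14 counts in every library. The summed lineage markers ranged from 1730 to 1770 CPM in unloaded and from 1799 to 1835 CPM in loaded libraries. Epithelial markers were at 0, and adipocyte markers at or below 0.134 CPM. The summed blood markers were at 5.82 and 4.88 CPM in unloaded and 3.47 and 2.82 CPM in loaded libraries, and the muscle markers at 2.82 and 2.94 against 1.18 and 1.74 CPM. Endothelial markers were at 3.10 and 2.01 against 2.17 and 0.906 CPM. The part of these low levels in the results was not tested.

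Several of the RNAs carry smaller RNAs whose sequences define what is counted inside them. The pair of mature miRNAs in the middle exon of *Mir22hg* is shown because this host gene had the highest fold change of the group. Capitals mark the seed, bases 2 to 8, and the sequences are from RefSeq (GRCm38.p6).
mmu-miR-22-5p (chr11:75463734-75463755, plus strand): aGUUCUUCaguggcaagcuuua
mmu-miR-22-3p (chr11:75463772-75463793, plus strand): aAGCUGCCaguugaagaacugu
The seeds of the pair differ. miRNAs are also hosted by the transcripts at 0, and they are given for comparison of the seeds, none of which is shared with miR-22.
mmu-miR-675-5p in *H19* (chr7:142577112-142577133, minus strand): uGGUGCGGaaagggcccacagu
mmu-miR-675-3p in *H19* (chr7:142577078-142577099, minus strand): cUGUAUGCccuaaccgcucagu
mmu-miR-770-5p in *Meg3* (chr12:109563710-109563731, plus strand): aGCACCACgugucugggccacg
mmu-miR-770-3p in *Meg3* (chr12:109563744-109563765, plus strand): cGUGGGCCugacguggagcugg

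The snoRNA rows below are tested rows inside *Gas5* and *Snhg1* whose loaded libraries were both above the unloaded ones. Gm25789 in *Gas5*, also tested but with overlapping groups, is not shown. Sequences are those of GENCODE M21 transcripts (GRCm38). Capitals mark the first TGATGA and the last CTGA, the C and D boxes that bind the core proteins of box C/D snoRNAs. Marks were set only where both were found, so Gm25894 is unmarked although it holds a CTGA near its end.
Gm22357 in *Gas5* (chr1:161036057-161036139, plus strand): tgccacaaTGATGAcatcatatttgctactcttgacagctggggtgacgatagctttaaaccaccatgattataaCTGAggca
Mir5117 in *Gas5*, annotated as a snoRNA (chr1:161037356-161037439, plus strand): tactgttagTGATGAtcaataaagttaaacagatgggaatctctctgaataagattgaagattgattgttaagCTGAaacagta
Snord80 in *Gas5* (chr1:161037604-161037680, plus strand): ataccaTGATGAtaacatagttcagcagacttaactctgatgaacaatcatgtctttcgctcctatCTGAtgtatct
Gm24452 in *Snhg1* (chr19:8724531-8724602, plus strand): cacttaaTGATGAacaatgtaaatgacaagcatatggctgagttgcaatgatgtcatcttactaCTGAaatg
Gm25894 in *Snhg1*, which lacks TGATGA (chr19:8724251-8724325, plus strand): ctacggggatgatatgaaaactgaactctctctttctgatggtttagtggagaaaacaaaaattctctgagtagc

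Levels were compared between genes as CPM per kb of annotated exon sequence, merged over all transcripts of a gene. In *Snhg1* (2969 bases) and *Snhg12* (2402 bases) the merged exons form 1 block over the whole gene, introns included. In *Gas5* (3760 bases) they cover most of the gene, but in *Epb41l4aos* (430 bases) and *Mir22hg* (1924 bases) a smaller part. The order and steps among these genes thus depend in part on the annotation. *Malat1* stood apart at 201 to 316 CPM per kb over the 4 libraries. *Snhg1* (34.3 to 51.1), *Gas5* (37.4 to 44.1) and *Epb41l4aos* (27.9 to 38.2) followed on the same scale, and neighbours in this order overlapped in range. *Snhg12* (11.7 to 14.1), *Mir22hg* (8.49 to 13.5) and *Neat1* (4.69 to 8.91) formed the next steps, again with overlapping neighbours. *Kcnq1ot1*, whose single annotated exon spans 93092 bases, was lowest at 0.535 to 0.633 CPM per kb. The steps from *Malat1* to *Snhg1*, from *Epb41l4aos* to *Snhg12* and from *Neat1* to *Kcnq1ot1* were the ones whose ranges did not overlap. Without division by length, mean CPM placed *Malat1* at percentile 99.9 of the tested genes, *Gas5* at 90.2, *Neat1* at 89.0, *Snhg1* at 87.6, *Kcnq1ot1* at 70.7, *Snhg12* at 58.5, *Mir22hg* at 51.0 and *Epb41l4aos* at 44.3. The last 3 were thus close to the middle of the tested genes.

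**Figure D1:**
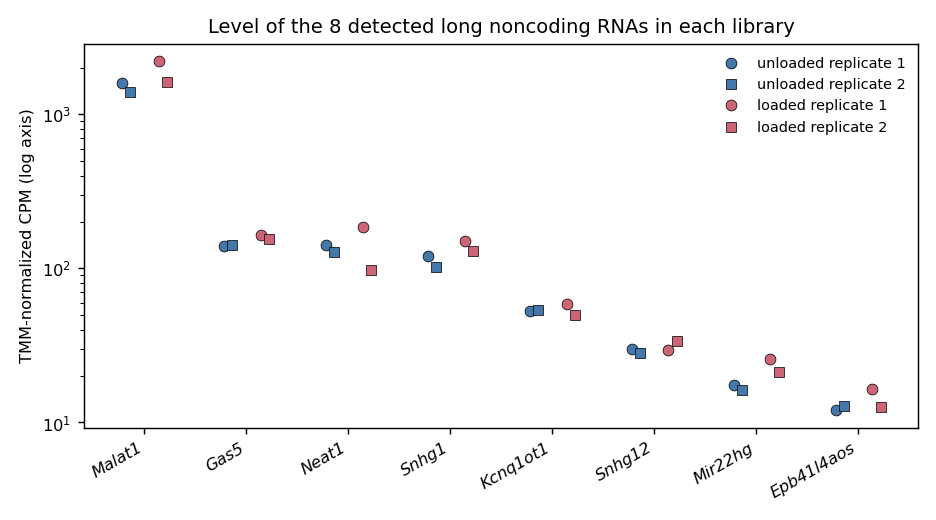
TMM-normalized CPM of the 8 detected long noncoding RNAs on a log axis, 1 point per library, unloaded and loaded. *Malat1* lay at 1407 to 2208 CPM and *Epb41l4aos* at 12.0 to 16.4 CPM, and the loaded points of *Neat1* lay on both sides of its unloaded points.

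*Malat1* (ENSMUSG00000092341.3, chr19:5795690-5802672, minus strand, a lincRNA of 1 merged exon block) had counts of 46124 and 42629 when unloaded, against 71247 and 48513 when loaded. Both loaded libraries were above both unloaded libraries, but loaded replicate 2 (1628 CPM) only narrowly exceeded unloaded replicate 1 (1588 CPM). Loaded replicate 1 was far above loaded replicate 2. The means were 1497 ± 128 and 1918 ± 410 CPM (SD, n = 2), and the difference did not pass the test, since the log2 fold change was 0.36 ± 0.143 (SE; 95% interval 0.01 to 0.71; edgeR adjusted p = 0.337). *Malat1* took 0.142% to 0.221% of all counts. The loaded replicates differed by 0.44 on the log2 scale, with a counting error of 0.00849. In these bulk libraries, a change in the number of expressing cells and a change in RNA per cell cannot be told apart.

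*Neat1* (ENSMUSG00000092274.3, chr19:5824708-5845478, minus strand, a lincRNA) lies beside *Malat1* on the same strand. It had 4124 and 3885 counts in unloaded and 5974 and 2904 counts in loaded libraries. Loaded replicate 1 was the highest library and loaded replicate 2 the lowest, so the groups overlapped. The means were 135 ± 9.76 and 141 ± 62.0 CPM (SD, n = 2), with a log2 fold change of 0.07 ± 0.274 (95% interval -0.60 to 0.73; edgeR adjusted p = 0.945). The loaded replicates of *Neat1* differed by 0.93 on the log2 scale against a counting error of 0.0326, and 9.01% of tested genes had a larger difference between these replicates. The direction for *Neat1* was not settled, since its log2 fold change was -0.47 without loaded replicate 1 and -0.0077 without unloaded replicate 2. Gm27505, a tested row inside the *Neat1* exon on the same strand, had 60 and 2 counts in unloaded and 136 and 67 in loaded libraries. Its log2 fold change was 1.61 (edgeR adjusted p = 0.557). How reads were divided between Gm27505 and *Neat1* was not tested.

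The snoRNA host genes came next in level. *Gas5* (ENSMUSG00000053332.13, chr1:161034422-161038539, plus strand), which accumulates when growth stops and translation slows, had 4089 and 4281 counts in unloaded and 5352 and 4658 counts in loaded libraries. Both loaded libraries were higher, and the replicates of each group were close. The means were 141 ± 0.331 and 161 ± 6.78 CPM (SD, n = 2), and the log2 fold change of 0.19 ± 0.0687 was the most precise of the group (95% interval 0.02 to 0.36; edgeR adjusted p = 0.291). *Zbtb37*, a zinc finger gene on the opposite strand that overlaps the start of *Gas5*, stood at -0.04 on the log2 scale (edgeR adjusted p = 0.931).

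*Snhg1* (ENSMUSG00000108414.1, chr19:8723475-8726443, plus strand) had 3502 and 3085 counts in unloaded and 4892 and 3846 counts in loaded libraries. Both loaded libraries were above both unloaded libraries. Its means were 111 ± 13.3 and 140 ± 16.0 CPM (SD, n = 2), with a log2 fold change of 0.34 ± 0.118 (95% interval 0.05 to 0.62; edgeR adjusted p = 0.284). *Snhg1* also had the lowest adjusted p of the group in DESeq2, 0.0827.

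*Snhg12* (ENSMUSG00000086290.9, chr4:132308623-132311024, plus strand) had 866 and 850 counts in unloaded and 947 and 1007 counts in loaded libraries. After normalization the groups overlapped, because loaded replicate 1 at 29.4 CPM lay below unloaded replicate 1 at 29.8 CPM. The log2 fold change was 0.13 ± 0.114 (95% interval -0.15 to 0.40; edgeR adjusted p = 0.676). *Epb41l4aos* (ENSMUSG00000087590.2, chr18:33794892-33795986, plus strand) had 348 and 388 counts in unloaded and 530 and 373 counts in loaded libraries, and loaded replicate 1 alone stood above the other libraries. Its log2 fold change was 0.22 ± 0.176 (95% interval -0.21 to 0.65; edgeR adjusted p = 0.625).

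*Mir22hg* (ENSMUSG00000085148.1, chr11:75461539-75466676, plus strand), the host of miR-22, had 511 and 495 counts in unloaded and 837 and 633 counts in loaded libraries. Both loaded libraries were higher. The means were 17.0 ± 0.892 and 23.6 ± 3.32 CPM (SD, n = 2). Its log2 fold change of 0.48 ± 0.141 was the largest of the 8 (95% interval 0.13 to 0.82; edgeR adjusted p = 0.211). The row of the *Mir22* hairpin itself held 1 count in each library, so nothing was measured there on the mature miRNA. The gene *Tlcd2* overlaps *Mir22hg* on the same strand, and its counts of 14, 20, 49 and 27 (unloaded 1 and 2, loaded 1 and 2) gave 1.08 on the log2 scale (edgeR adjusted p = 0.420). The share of reads divided between this pair was not tested.

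*Kcnq1ot1* (ENSMUSG00000101609.2, chr7:143203458-143296549, minus strand) is an antisense transcript within *Kcnq1* that silences neighbouring genes on the paternal copy. It had 1527 and 1617 counts in unloaded and 1901 and 1485 counts in loaded libraries. Loaded replicate 1 was highest and loaded replicate 2 lowest in CPM, so the groups overlapped. The means were 53.0 ± 0.551 and 54.4 ± 6.43 CPM (SD, n = 2), with a log2 fold change of 0.04 ± 0.114 (95% interval -0.24 to 0.32; edgeR adjusted p = 0.921). *Kcnq1* on the other strand had 2 counts in 1 unloaded library and 0 elsewhere. *Meg3* (ENSMUSG00000021268.17, chr12:109541001-109571726, plus strand) and *H19* (ENSMUSG00000000031.16, chr7:142575529-142578143, minus strand) had 0 counts throughout, a value that allows up to 0.103 CPM for counting error only.

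**Figure D2:**
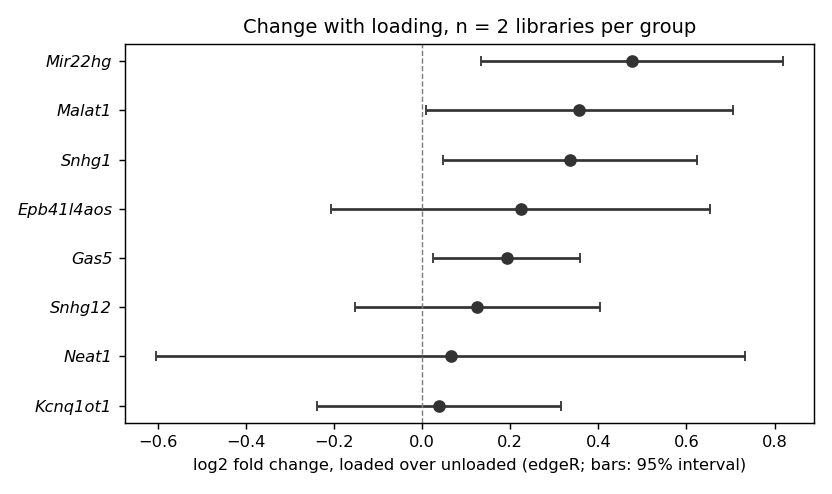
Log2 fold change of each detected RNA, loaded over unloaded (edgeR), as points with 95% intervals. The points ran from 0.04 (*Kcnq1ot1*) to 0.48 (*Mir22hg*), and the intervals of *Mir22hg*, *Malat1*, *Snhg1* and *Gas5* lay above 0 before adjustment.

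Over the 8 RNAs, both loaded libraries lay above both unloaded libraries in 4 (*Malat1*, *Gas5*, *Snhg1*, *Mir22hg*) and below them in 0. Among all tested genes the shares were 22.1% above and 24.5% below. These same 4 had an unadjusted edgeR p under 0.05 in the higher direction, as did 6.88% of all tested genes, and 14.3% in either direction. DESeq2 gave 3 RNAs (*Gas5*, *Snhg1*, *Mir22hg*) with an unadjusted p under 0.05, against 11.3% of the tested genes. The unadjusted DESeq2 p of *Malat1* was 0.122. The adjusted p-values of the 8 RNAs ran from 0.211 to 0.945 in edgeR and from 0.0827 to 0.980 in DESeq2. Loaded replicate 1 was above loaded replicate 2 in 7 of the 8, with a median log2 difference of 0.27, whereas 49.0% of all tested genes had this order. The 10 RNAs together took 0.211% and 0.190% of counts in unloaded and 0.285% and 0.209% in loaded libraries. In this share, which is not TMM-scaled and is mostly *Malat1*, loaded replicate 2 lay between the unloaded replicates. In CPM, loaded replicate 2 lay above both unloaded libraries for *Malat1*, *Gas5*, *Snhg1*, *Mir22hg* and *Snhg12*. Loaded replicate 2 lay below both for *Neat1* and *Kcnq1ot1*, and between them for *Epb41l4aos*. The part of that single library in the fold changes was measured by leaving it out: without loaded replicate 2 the median of the 8 was 0.43, and without loaded replicate 1 it was 0.14.

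**Figure D3:**
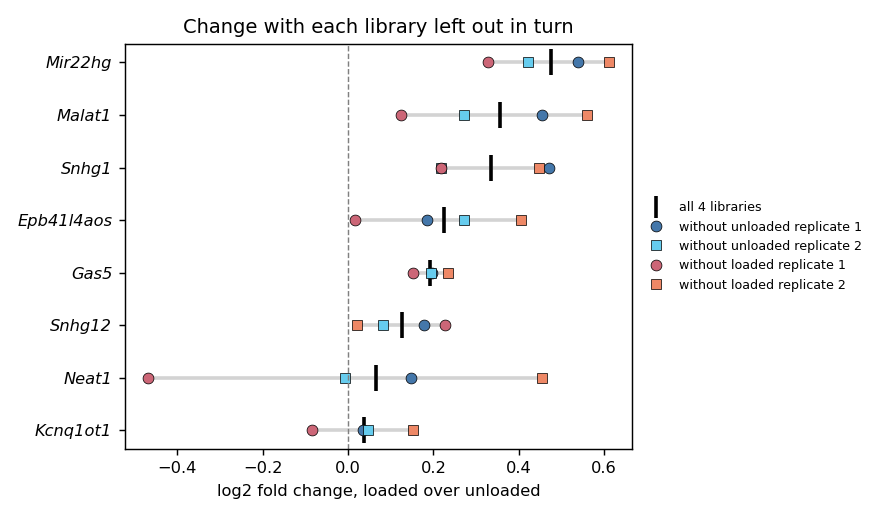
Log2 fold change of each detected RNA with all libraries and with each library left out in turn, as points. *Gas5* stayed between 0.15 and 0.23, *Mir22hg* between 0.33 and 0.61, *Snhg1* between 0.22 and 0.47, *Malat1* between 0.12 and 0.56, *Epb41l4aos* between 0.02 and 0.41 and *Snhg12* between 0.02 and 0.23, whereas *Neat1* ran from -0.47 to 0.45 and *Kcnq1ot1* from -0.09 to 0.15.

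Inside the host genes, 24 annotated snoRNA rows were nested: 10 in *Gas5*, 8 in *Snhg1*, 5 in *Snhg12* and 1 in *Epb41l4aos*. Of these, 23 lie within exon blocks that some annotated transcript of the host retains, so host and snoRNA reads share positions. Of the 24, 15 had at most 3 counts in every library, and most of these held exactly 1 count in each. The counts were rebuilt from coverage, and whether such values stand for reads of the snoRNA was not tested. The counts over all nested snoRNA rows summed to 727 and 720 in unloaded and 1235 and 1076 in loaded libraries. Both loaded sums were thus the higher ones. By host, the sums were 499, 491, 744 and 708 in *Gas5* and 198, 200, 406 and 309 in *Snhg1* (unloaded 1 and 2, loaded 1 and 2). In *Gas5*, 124 of the counts in loaded replicate 2 came from Gm22489, a row with 1 count in each other library, and without it the *Gas5* sums were 498, 490, 743 and 584.

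The 8 tested snoRNA rows all had fold changes above 0, as had 48.5% of all tested genes, and their median was 0.73 on the log2 scale. Both loaded libraries were above both unloaded libraries in 7. Among all tested genes this share was 22.1%, and among all tested snoRNA rows it was 54.3%. Gm23639 reached 10 counts only when loaded, so the filter fixed its direction. The 7 rows with at least 10 counts in every library had a median of 0.67. Of these 7, 6 lay higher without overlap, against 22.8% of all genes so selected and 57.7% of tested snoRNA rows so selected. In edgeR and DESeq2, 0 of the 8 passed an adjusted p of 0.01, and 4 had an unadjusted edgeR p under 0.05, against 14.3% of all tested genes. In *Snhg1*, Gm24452, a box C/D snoRNA whose sequence is given above, had 105 and 108 counts in unloaded and 222 and 168 in loaded libraries. Its log2 fold change was 0.80 ± 0.222 (edgeR adjusted p = 0.189), against 0.34 for its host. Gm25894 in the same host had 87 and 86 counts in unloaded and 178 and 135 in loaded libraries (log2 fold change 0.78; edgeR adjusted p = 0.226). In *Gas5*, Gm22357 carried most of the snoRNA counts, with 378 and 380 in unloaded and 555 and 425 in loaded libraries, or 0.30 on the log2 scale (edgeR adjusted p = 0.435). Its loaded libraries were both higher, and its fold change was closer to the 0.19 of its host. Snora44 in *Snhg12* (20, 16, 46 and 39 counts) and Gm23639 in *Epb41l4aos* (4, 7, 32 and 14 counts) had log2 fold changes of 1.16 and 1.96 on few counts (edgeR adjusted p = 0.326 and 0.313). Mir5117, annotated as a snoRNA (45, 50, 80 and 59 counts; 0.48 on the log2 scale), and Snord80 (52, 34, 65 and 78 counts; 0.67) in *Gas5* were also higher in both loaded libraries. Snord80 has a second overlapping row with 1 count in each library, so its reads could have been divided between them. Gm25789 in *Gas5* (18, 21, 38 and 17 counts; 0.41) was the exception whose groups overlapped.

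**Figure D4:**
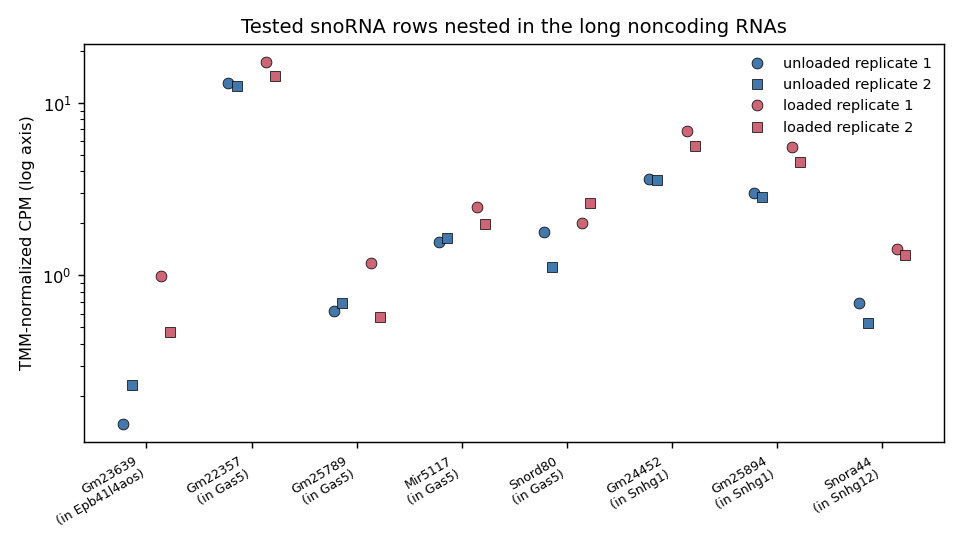
TMM-normalized CPM of the 8 tested snoRNA rows nested in the host genes, on a log axis with 1 point per library. Both loaded points lay above both unloaded points in 7 of 8, the exception being Gm25789 in *Gas5*. The share was 22.1% among all tested genes and 54.3% among all tested snoRNA rows.

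Of all 81 tested snoRNA rows, 62 had fold changes above 0 and the median was 0.45 on the log2 scale, with 0 called at 0.01 by edgeR or DESeq2 (9 and 2 at an unadjusted p under 0.05). The 73 rows outside the host genes above had a median of 0.42. Both loaded libraries lay above both unloaded in 54.3% of the 81. Since 7 of the 81 reached 10 counts in both loaded libraries and in no unloaded one, and 1 the other way round, the filter fixed their direction. Of the 52 rows with at least 10 counts in every library, 41 had fold changes above 0 (78.8%, against 48.3% of all genes so selected) and 30 lay higher without overlap (57.7% against 22.8%). The snRNA and miRNA rows stayed near all genes, with 6 of 11 and 13 of 25 above 0 and medians of 0.02 and 0.03. snoRNA rows took 0.00998% and 0.00977% of counts in unloaded and 0.0140% and 0.0124% in loaded libraries. The small nuclear RNA *Rn7sk*, which holds the elongation factor P-TEFb inactive, had 91 and 128 counts in unloaded and 198 and 173 in loaded libraries (log2 fold change 0.70; edgeR adjusted p = 0.277). *Rn7s1* and *Rn7s2*, RNAs of the signal recognition particle, had log2 fold changes of 0.67 and 0.73. The share of snoRNA rows was thus larger in both loaded libraries, and its part in the values of the host genes was not tested.

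Among 16 tested snoRNA host genes of a fixed list, 14 had fold changes above 0, at a median of 0.23 on the log2 scale. Leaving out the members above left 12, of which 10 were positive with a median of 0.25. Of the 16, edgeR and DESeq2 called 0 at an adjusted p of 0.01, and each had 5 at an unadjusted p under 0.05, where the shares of all tested genes were 14.3% and 11.3%. *Zfas1* (70.1 ± 2.51 to 93.3 ± 14.7 CPM, SD, n = 2) and *Snhg17* (35.9 ± 3.30 to 50.4 ± 8.82 CPM) had log2 fold changes of 0.41 and 0.49 (edgeR adjusted p = 0.216 and 0.219). *Snhg18* went the other way, from 17.4 ± 0.0496 to 12.7 ± 0.825 CPM, or -0.45 on the log2 scale (edgeR adjusted p = 0.204). Of 21 other tested regulatory lncRNAs, 11 had fold changes above 0, with a median of 0.03. *Fendrr* at -0.62 (edgeR adjusted p = 0.134) and *Mir17hg* at 0.50 (edgeR adjusted p = 0.251), the host of an oncogenic miRNA cluster, had the smallest p-values, and *Rn7sk* followed.

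**Figure D5:**
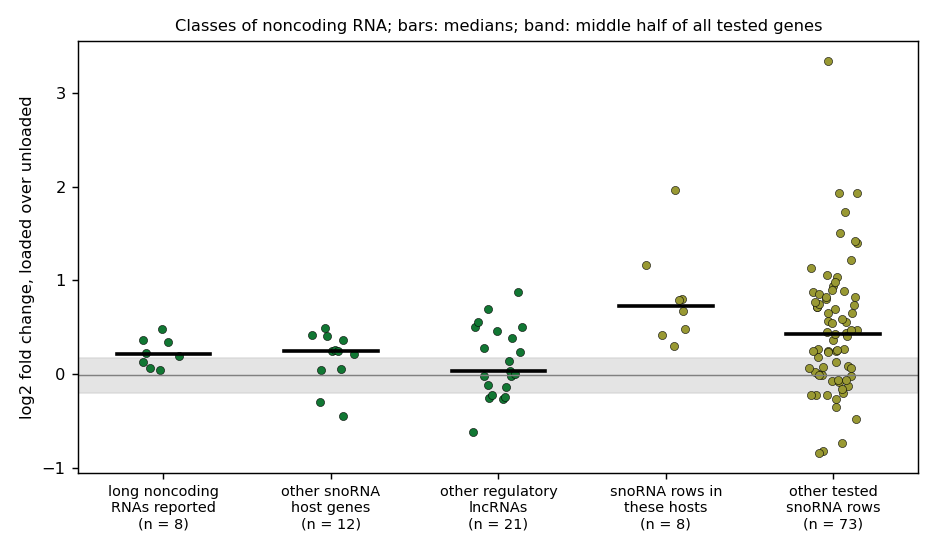
Log2 fold change, loaded over unloaded, for each gene of 5 classes of noncoding RNA as points, with medians as bars and the span between the quartiles of all tested genes as a band. The medians were 0.21, 0.25, 0.03, 0.73 and 0.42 from left to right, and single snoRNA rows spread most.

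The RNAs that encode protein partners of *Neat1* and *Malat1* had median fold changes close to that of all genes. Protein was not measured in these libraries. Of 24 tested genes of paraspeckle proteins, 15 had fold changes above 0, at a median of 0.02 on the log2 scale. *Tardbp*, which encodes the RNA-binding protein TDP-43, rose in DESeq2 (adjusted p = 0.000689). DESeq2 thus called 1 of the 24 at 0.01, against 2.91% of the genes it adjusted. The log2 fold change of *Tardbp* was 0.42 (129 ± 5.03 to 173 ± 7.79 CPM, SD, n = 2), with an edgeR adjusted p of 0.0797. Of 22 tested genes of nuclear speckle proteins, 6 were above 0, with a median of -0.05. Both edgeR and DESeq2 called 0 of the 22, and each had 2 at an unadjusted p under 0.05, a smaller share than the 14.3% and 11.3% of all tested genes. *Cdk12*, a kinase of the elongating polymerase, had the smallest p among them, at 0.30 on the log2 scale (edgeR adjusted p = 0.140). The decay of snoRNA host transcripts depends on nonsense-mediated decay factors, and 11 of the 17 tested were above 0, with a median of 0.02. *Upf2*, an adaptor of that pathway, had the smallest p at 0.34 on the log2 scale (edgeR adjusted p = 0.142; DESeq2 0.0306).

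The imprinted clusters differed in how much of them was detected. In the *Dlk1*-*Meg3* cluster none of 7 genes was tested. Of these, 4 were at 0, and the rest had at most 5 counts, all in unloaded replicate 1. In the *H19*-*Igf2* cluster 5 of 7 genes, *H19* and *Igf2* among them, were at 0, and *Lsp1* and *Mrpl23* were tested with log2 fold changes of -0.24 and 0.01. In the *Kcnq1ot1* cluster 9 of 15 genes were tested, 6 with fold changes above 0 and a median of 0.06. *Cdkn1c*, *Phlda2*, *Ascl2* and *Th* were at 0. *Tnfrsf23*, a decoy receptor gene, had 3077 and 3508 counts in unloaded and 4593 and 4785 in loaded libraries. It rose in DESeq2 (adjusted p = 0.00125), with a log2 fold change of 0.45 and an edgeR adjusted p of 0.112. DESeq2 thus called 1 of the 9 at 0.01, against 2.91% of the genes it adjusted. *Tssc4* stood at 0.69 on the log2 scale (edgeR adjusted p = 0.0968; DESeq2 0.0123). *Kcnq1ot1* itself stayed at 0.04, as given above.

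Of 50 tested genes within 100 kb of the 10 RNAs, edgeR called 0 at 0.01 (11 at an unadjusted p under 0.05, where 14.3% of all genes were). DESeq2 called 2, against 2.91% of the genes it adjusted, and some of the 50 had no adjusted p in DESeq2. The median of the 50 was 0.04 on the log2 scale. The 50 include Gm27505, which lies inside *Neat1* and was counted as a neighbour of *Malat1*. *Ltbp3*, a binding protein of latent TGF-beta, lies 37158 bases from *Malat1* and 66176 from *Neat1*. It fell in DESeq2 (adjusted p = 1.91e-11), from 3864 and 4234 counts in unloaded to 2600 and 2194 in loaded libraries, with a log2 fold change of -0.82 and an edgeR adjusted p of 0.0209. *Serpinf1*, which encodes the bone and vessel factor PEDF, lies 38838 bases from *Mir22hg* and fell in DESeq2 (adjusted p = 2.21e-05). Its log2 fold change was -0.53 (edgeR adjusted p = 0.0639). Over the 50 neighbours, 28 had fold changes above 0. *Wdr81*, 6822 bases from *Mir22hg* and picked out after its values were seen, stood at 0.52 on the log2 scale (edgeR adjusted p = 0.134; DESeq2 0.0102). Other neighbours between 0.01 and 0.05 in DESeq2 were *Fam89b* (log2 fold change 1.08; DESeq2 adjusted p = 0.0226), Gm17300 (0.78; 0.0323) and *Slc3a2* (0.30; 0.0343). *Slc3a2* lies 106 bases from *Snhg1*. Their edgeR adjusted p-values ran from 0.105 to 0.195.

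Promoter windows of 300 bases were available from RefSeq for 7 of the 10 RNAs in 9 windows, and *Neat1*, *H19* and *Epb41l4aos* had no entry. The start of snoRNA host genes is known for a terminal oligopyrimidine tract, a C followed by pyrimidines, which ties translation to growth signals. A C followed by at least 4 pyrimidines, starting within 5 bases of the annotated start on the plus strand of the gene, was found in 4 of the 9 windows (the downstream start of *Gas5*, *Snhg12*, *Mir22hg* and the first start of *Meg3*), and in 18.3% of all 32851 windows. The 4 starts of the 3 snoRNA hosts with an entry are shown as 30 bases on either side of the start (GRCm38.p6, plus strand), with the tract in capitals where these letters hold it.
*Gas5*, upstream start (chr1:161034571-161034630): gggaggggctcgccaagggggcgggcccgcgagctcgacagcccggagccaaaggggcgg
*Gas5*, downstream start (chr1:161035136-161035195): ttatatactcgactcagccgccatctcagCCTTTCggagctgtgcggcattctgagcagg
*Snhg12* (chr4:132308648-132308707): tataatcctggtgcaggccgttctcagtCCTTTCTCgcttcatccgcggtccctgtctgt
*Snhg1* (chr19:8723457-8723516): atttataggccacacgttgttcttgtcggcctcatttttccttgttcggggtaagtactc
On both strands, TGACNNNGC, the core of the antioxidant response element, was found in 1 of the 9 windows (*Kcnq1ot1*) and in 12.4% of all windows. The core of the interferon-stimulated response element was in 0 of the 9 and in 3.44% of all windows, and the E-box CACGTG was in 0 of the 9 and in 7.15% of all windows.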

How the data were processed

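The authors depleted ribosomal RNA from total RNA, aligned reads with HISAT2 2.1.0 to mm10, and assembled them with StringTie 1.3.5, whose prepDE script turned coverage into the deposited counts per gene. Such counts are rebuilt from coverage with an assumed read length, which is not given in the sources used here, nor are strandedness and the annotation. All identifiers match GENCODE M21 (GRCm38), which gave coordinates and exon lengths. The authors' DESeq2 was 1.32.0.

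Counts were filtered with filterByExpr (minimum 10), scaled by TMM and compared by edgeR 4.0.16 (quasi-likelihood F test) in R 4.3.3. P-values of all 16269 tested genes were adjusted together (Benjamini-Hochberg). The study's adjusted p threshold of 0.01 was used. The SE was taken from F and the size of the log2 fold change. CPM are TMM-normalized. Alternatives were DESeq2 1.42.0, voom of limma 3.58.1, the exact test of edgeR, other scalings and filters, counts divided by 2, a replicate block and each library left out. Rows sharing a member's name were also summed, which changed nothing because each name occurred once. Python 3.11.15 and pandas 2.3.3 were used for tables. The fit was also run on simulated counts with log2 fold changes of 1 and 2 in either direction. These are larger than those of the members, so the simulation does not show whether changes of their size would be found. The members and lists were chosen with earlier results of these data known. Genes named beside the members were list genes past 0.01 in edgeR or DESeq2, otherwise at most 5 per list with the smallest p, genes overlapping a member, and called neighbours within 100 kb. Cluster genes at 0, *Wdr81* and the other uncalled neighbours named stand outside this rule. Counts over snoRNA rows with at least 10 counts in every library, and sums without 1 row, were added after the values were seen. No source stated that replicate numbers pair cultures, so no pairing was used in the main fit. Deviations of same-numbered replicates had a correlation of -0.057 over all tested genes, which cannot show whether cultures were paired.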

Additional observations from a re-analysis of the deposited data

How the results depend on the processing

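With 2 libraries per group, the calls over all genes depended on the tool: 16 genes passed 0.01 in edgeR, 363 in DESeq2, 279 in edgeR's exact test, 29 with at least 10 counts in every library, 147 at an adjusted p of 0.05, 0 without a filter (2435 at an unadjusted p under 0.05), and 0 to 58 with a library left out. With the replicate number as a block, 0 genes were called (1839 at an unadjusted p under 0.05), although the numbers only name the samples. No long noncoding RNA of the group was called in any of these settings, nor at 0.05. The median of the 8 was 0.21, moved to 0.43 without loaded replicate 2, with 0.14 to 0.43 over the fits without 1 library. The 120 values of single RNAs under alternatives include, for each RNA, a sum over rows of its name. These sums could not differ from the main fit, because each name occurred once. Of the 120 values, 116 kept their direction. The other 4 reversed: *Neat1* to -0.0047 with the replicate block, -0.0077 without unloaded replicate 2 and -0.47 without loaded replicate 1, and *Kcnq1ot1* to -0.085 without loaded replicate 1. Over the fits without 1 library, *Neat1* ranged from -0.47 to 0.45 and *Kcnq1ot1* from -0.085 to 0.15. In fits that leave out a library, the lone sample is assumed to vary like the other group. The snoRNA median ran from 0.36 to 0.50 over the same alternatives other than the summed rows, a check added after its value was seen.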
